A study of Mus musculus with 12 samples.

Results

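The genes described here are 10 core genes of autophagy, chosen by symbol from the rows of the gene count tables: Ulk1, Becn1, Map1lc3a, Map1lc3b, Gabarapl1, Sqstm1, Atg5, Atg7, Atg12 and Tfeb. All 10 were found among the 24061 listed gene symbols, and all 10 passed the filter on low counts. Expression was measured by poly(A) RNA-seq in hearts of chow-fed male C57BL/6J mice, 2 to 4 months old. The 6 HKII+/- hearts came from mice heterozygous for hexokinase II, the glucose-phosphorylating enzyme encoded by Hk2, and the 6 HKII+/+ hearts from wild-type mice. How the Hk2 allele was made is not given in the sources used here, and no treatment is named for either group. The comparison asks what losing 1 of the Hk2 copies does to RNA levels in the heart.

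Autophagy encloses cytoplasm and organelles in a double membrane, the autophagosome, which then fuses with the lysosome. The kinase Ulk1 starts the process, and Beclin 1 (Becn1) belongs to the lipid kinase complex that marks the growing membrane. Atg7, Atg5 and Atg12 attach proteins of the Atg8 family (Map1lc3a, Map1lc3b, Gabarapl1) to that membrane, p62 (Sqstm1) ties ubiquitinated cargo to them, and Tfeb is a transcription factor of lysosomal and autophagy genes. In the heart the pathway is known for the turnover of mitochondria and for its response to fasting and ischaemia. Flux through it is set largely by protein modification and turnover, which RNA levels do not measure.

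Total counts ranged from 17263209 to 51556592 per library. Libraries are titled as separate heart samples, and nothing further says that they came from separate animals. P-values therefore measure the spread between these samples. In the labels, HKII+/- replicate 11 and HKII+/+ replicate 13 carry a mark as possible outliers, so the genotype comparison was made with 12 libraries (n = 6 per genotype) and with the 10 unmarked ones (n = 5 per genotype). Hk2, the targeted gene, measured 471 to 653 CPM (counts per 1000000 of the library's scaled total) in HKII+/+ libraries. It measured 256 to 354 CPM in the unmarked HKII+/- libraries and 568 CPM in the library labelled HKII+/- replicate 11. That value was above the unmarked HKII+/+ libraries (471 to 542 CPM) and below HKII+/+ replicate 13 (653 CPM). The scaling factors of replicates 11 and 13 were 0.787 and 0.76, against 0.992 to 1.09 in the others. As a share of all counts, Hk2 in replicate 11 lay between the unmarked HKII+/- libraries and every HKII+/+ library. It had 13360 of 29924460 counts there, against 10661 of 21594153 in HKII+/+ replicate 21, the lowest of its genotype. With the 10 unmarked libraries the log2 fold change of Hk2 was -0.80 (edgeR adjusted p = 0.0165), and with all 12 it was -0.66 (edgeR adjusted p = 1). The call with 10 libraries no longer held with any 1 of 7 further libraries removed, which were HKII+/+ 15, 17 and 18 and HKII+/- 12, 16, 19 and 20 (edgeR adjusted p up to 0.0951). All 8 listed cardiomyocyte markers were expressed, and the largest was Myh6 (34312 to 48160 CPM in the unmarked libraries). Their summed level was 69061 to 94557 CPM in the same libraries. It was 181085 CPM in replicate 11 and 203817 CPM in replicate 13. The markers did not move together: Myh6, Myl3, Tnnt2 and Tnni3 were above every unmarked library in both, while Actc1 and Pln were below every one in both, and Myl2 and Ryr2 were below them in replicate 11 only. Airway markers summed to at most 1.76 CPM in unmarked libraries but to 261 CPM in replicate 11, where the sums of fibroblast markers (10065 CPM) and atrial markers (16301 CPM) were also highest. The airway sum was mostly Cyp2f2 (191 CPM), and Wfdc2 (29.3 CPM), Scgb1a1 (20.9 CPM) and Scgb3a2 (20.1 CPM) were also above every unmarked library. Sftpc (0 CPM) and Sftpb (0.17 CPM) lay within the unmarked range. The fibroblast and atrial sums followed Col1a1 and Col3a1, and Nppa and Myl4. Adipocyte, smooth muscle, macrophage and Schwann cell sums were also highest in replicate 11. Acta2, Cnn1 and Ucp1 lay within the unmarked range there, though Ucp1 (69.5 CPM) was below HKII+/+ replicate 14 only (76.8 CPM). Tagln, Cd68 and Adgre1 were below every unmarked library. The endothelial sum lay within the unmarked range, but Tie1 (455 CPM) was above and Pecam1 (149 CPM) and Cdh5 (112 CPM) below every unmarked library, with Kdr within. The erythroid sum, which was Alas2 alone, lay within the unmarked range. The skeletal muscle sum lay below its range and was mostly Ckm (309 CPM), while Actn3 (3.91 CPM) and Myh2 (0.298 CPM) were above every unmarked library. In the same library the fibroblast genes Dcn and Pdgfra were below every unmarked library, and the atrial genes Myl7, Sln and Bmp10 lay within the unmarked range. The 4 globin genes Hbb-bs, Hbb-bt, Hba-a1 and Hba-a2 were listed at 0 in every library.

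None of the 10 autophagy genes passed the test for a difference between the genotypes. In the 10 unmarked libraries their log2 fold changes (HKII+/- against HKII+/+) lay between -0.066 for Atg7 and 0.11 for Tfeb, 6 above 0 and 4 below, with Atg5 turning below 0 under upper-quartile factors or library totals. Their median was 0.0056, beside -0.0046 over all genes tested. In edgeR's quasi-likelihood test with Benjamini-Hochberg adjustment over all genes, 0 of the 10 passed an adjusted p of 0.05, against 1 of 14139 genes overall (0.00707%). At unadjusted p below 0.05 there were 0 of the 10, against 2.8% of all genes, and the lowest unadjusted p was 0.15, for Tfeb. The 95% intervals were narrow: the farthest bound of any of the 10 was a 1.21-fold difference (Tfeb) and the nearest a 1.07-fold one (Becn1).

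With all 12 libraries 0 of the 10 genes passed as well, against 0 of 14107 genes (0%). At unadjusted p below 0.05 there were again 0 of the 10 in edgeR, against 0.262% of all genes. DESeq2 and limma voom with quality weights also gave 0 by either threshold, with 10 or 12 libraries, though DESeq2 returned no p for Becn1 with 12. The log2 fold changes with 12 libraries were 0.057 for Ulk1, 0.42 for Becn1, -0.0082 for Atg5, -0.0053 for Atg7 and -0.036 for Atg12. They were -0.045 for Map1lc3a, -0.035 for Map1lc3b, -0.047 for Gabarapl1, -0.015 for Sqstm1 and -0.0053 for Tfeb. The intervals were wider, with a farthest bound of 3.21-fold for Becn1. For the other 9 genes every bound lay within 1.5-fold. The spread of Becn1 came from the marked libraries, described further on. In the plot of fold changes the grey bar of Becn1 alone runs past 1 on the log2 scale.

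**Figure D1:**
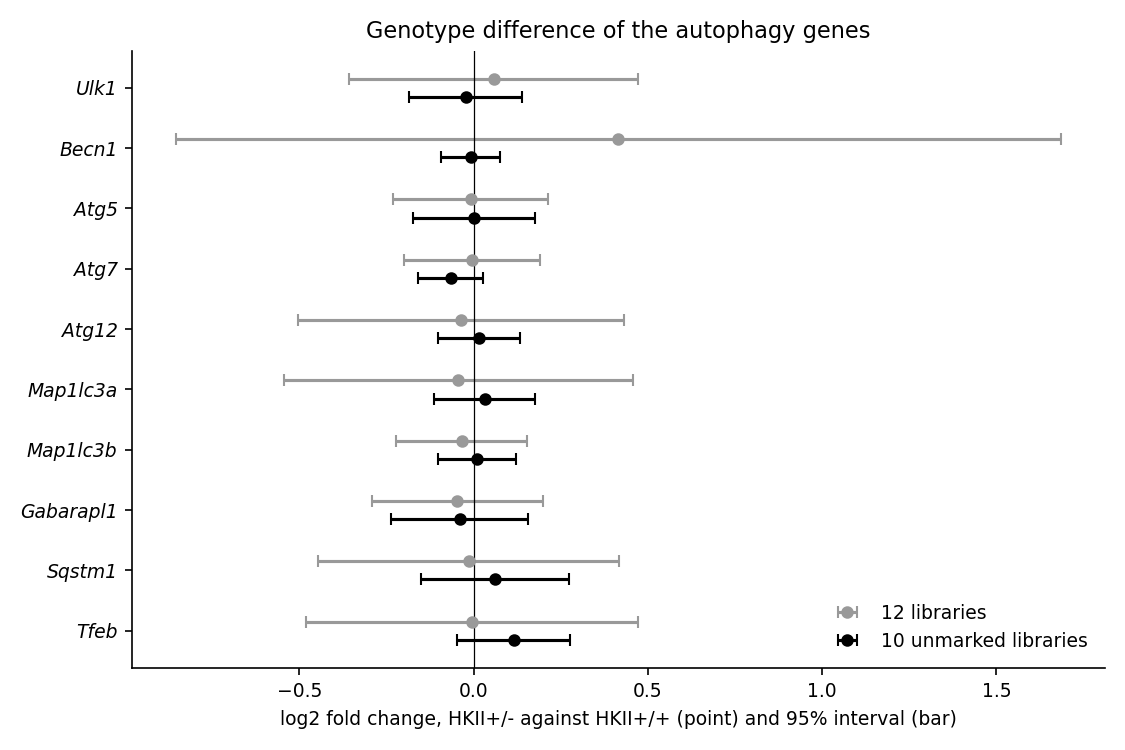
Log2 fold change of each autophagy gene, HKII+/- against HKII+/+ (x axis; points), with 95% intervals from edgeR (bars), for all 12 libraries (grey) and the 10 unmarked libraries (black). Every interval includes 0, and the black intervals stay within a 1.21-fold difference.

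Ulk1, the initiating kinase (GRCm38 chromosome 5, 110784488 to 110810097, minus strand), measured 128, 144, 145, 148 and 164 CPM in the unmarked HKII+/+ libraries and 126, 135, 149, 152 and 155 CPM in the unmarked HKII+/- libraries. The 2 ranges overlapped almost fully. The genotypes averaged 146 ± 12.9 and 143 ± 12.4 CPM (SD, n = 5 each), a log2 fold change of -0.023 (95% interval -0.19 to 0.14). The marked libraries held the most Ulk1 of their genotypes, 215 CPM in HKII+/+ replicate 13 and 265 CPM in HKII+/- replicate 11.

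Becn1, the Beclin 1 gene (chromosome 11, 101285952 to 101302286, minus strand), varied least of the 10. It measured 55.8, 56.7, 57.3, 58.8 and 58.9 CPM in the unmarked HKII+/+ hearts and 54.1, 57.1, 57.4, 58.4 and 58.7 CPM in the unmarked HKII+/- hearts. The genotypes overlapped over nearly the whole range. The coefficient of variation over the 10 libraries was 2.68%, at percentile 0.703 among 7256 genes whose mean CPM lay in the range of the 10 autophagy genes. The log2 fold change was -0.0084 (95% interval -0.093 to 0.076). In HKII+/+ replicate 13 Becn1 stood at 209.5 CPM and in HKII+/- replicate 11 at 377 CPM, apart from every other library. With all 12 libraries the log2 fold change was therefore 0.42 (SE 0.58), and it was -0.54 without replicate 11 and 0.97 without replicate 13. Exons of Becn1 and of Cntd1, on the opposite strand, share 3104 bases in the GENCODE vM21 annotation. The strand setting of the counting is not given in the sources used here, so reads of the pair may not be told apart. The same holds for the opposite-strand overlaps of Map1lc3b with Zcchc14 (58 bases), Gabarapl1 with 1700101I11Rik (570 bases) and Sqstm1 with Mrnip (580 bases). Cntd1 was listed at 0.262 to 0.62 CPM over the 12 libraries, including 0.595 CPM in replicate 11 and 0.262 CPM in replicate 13.

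Atg5 and Atg12, which are joined by Atg7 into the conjugate that lipidates Atg8 proteins, were alike in the genotypes. Atg5 (chromosome 10, 44268358 to 44364291, plus strand) measured 13.5, 15.9, 16.4, 16.5 and 16.9 CPM in the unmarked HKII+/+ hearts and 14.7, 14.8, 15.8, 16.1 and 17.7 CPM in the unmarked HKII+/- hearts. The ranges overlapped, and the log2 fold change was 0.0015 (95% interval -0.17 to 0.18). Atg12 (chromosome 18, 46730144 to 46741580, minus strand) measured 31, 33.9, 34.1, 34.4 and 37.6 CPM and 33.7, 33.8, 34.6, 34.9 and 35.5 CPM in the same order. The HKII+/- values lay inside the HKII+/+ range, and the log2 fold change was 0.015 (95% interval -0.1 to 0.13). With TMM factors Atg5 barely moved in the marked libraries (17.6 and 17.2 CPM in replicates 13 and 11), whereas Atg12 was lowest there (20.7 and 14.4 CPM). By library totals Atg5 too lay below every unmarked library in both (268 of 20070429 and 404 of 29924460 counts). Atg5 had the fewest counts of the 10 genes, 268 in replicate 13 being its lowest.

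Atg7, the E1-like enzyme that activates both Atg12 and the Atg8 proteins, was the 1 member whose unmarked groups did not overlap. It occupies chromosome 6, 114643097 to 114860614, on the plus strand. The unmarked HKII+/+ hearts measured 24.7, 24.9, 25.4, 25.5 and 25.7 CPM and the unmarked HKII+/- hearts 22.8, 23.9, 24.6, 24.6 and 24.6 CPM. The gap between them was from 24.63 to 24.66 CPM. Of all genes 0.474% had groups that did not overlap, and with 12 libraries 0.0213% did and 0 of the 10 autophagy genes. The means were 25.2 ± 0.438 and 24.1 ± 0.783 CPM (SD, n = 5 per genotype). The log2 fold change was -0.066 (95% interval -0.16 to 0.028), and edgeR gave an unadjusted p of 0.152 and an adjusted p of 1. An exact two-sided permutation test of log2 CPM for this gene alone gave 0.00794, the smallest p that 252 splits allow and the value of every gene whose groups do not overlap. Scaled by library totals without TMM factors, the groups overlapped (24.4 to 26.1 and 25.3 to 27.9 counts per 1000000). With TMM factors replicate 11 had 25.9 CPM and replicate 13 had 20.7 CPM, each on the other side of its group. By library totals both lay below every unmarked library (608 of 29924460 and 316 of 20070429 counts).

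The promoters of Atg7 and Atg5 are shown because theirs alone, among the windows found, held the letters CACGTG, the core of the CLEAR element that Tfeb binds. Windows of 250 bases before a RefSeq start (GRCm38.p6) were found for 7 of the 10 genes (9 windows, 3 of them for Tfeb), and CACGTG, which reads the same on both strands, occurred in those of 2 genes. It occurs in 6.02% of 32851 such windows of all genes. The forkhead letters GTAAACA (3.17% of windows) and the antioxidant response core TGACNNNGC (10.2%), searched on both strands, occurred in none of the 9. Capitals mark CACGTG, which begins 132 bases before the start in Atg7 (chr6:114670846-114671095, plus strand) and 14 bases before it in Atg5 (chr10:44268089-44268338, plus strand). The Atg7 window lies inside the gene as annotated by GENCODE, whose start is farther upstream. A match is a description of letters and not of binding.
Atg7: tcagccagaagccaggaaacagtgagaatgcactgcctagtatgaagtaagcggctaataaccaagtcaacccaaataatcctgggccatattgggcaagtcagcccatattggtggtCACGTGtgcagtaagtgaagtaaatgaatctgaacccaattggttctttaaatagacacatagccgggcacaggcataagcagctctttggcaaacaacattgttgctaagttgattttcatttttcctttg
Atg5: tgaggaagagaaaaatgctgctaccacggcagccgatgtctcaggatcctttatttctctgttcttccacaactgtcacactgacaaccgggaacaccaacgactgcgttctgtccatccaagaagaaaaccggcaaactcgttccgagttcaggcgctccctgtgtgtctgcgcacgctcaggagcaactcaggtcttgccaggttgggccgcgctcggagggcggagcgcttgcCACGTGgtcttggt

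None of the 3 Atg8-family genes passed the genotype test. Map1lc3a, which encodes LC3A (chromosome 2, 155276297 to 155278073, plus strand), measured 326, 348, 357, 361 and 373 CPM in the unmarked HKII+/+ hearts and 318, 337, 368, 385 and 393 CPM in the unmarked HKII+/- hearts. The HKII+/- hearts held both the lowest and the highest value. The log2 fold change was 0.031 (95% interval -0.11 to 0.18) and -0.022 with atrial markers as a covariate. The highest values came from HKII+/- replicates 22 and 19. Those libraries also had the highest cardiomyocyte marker sums of the unmarked libraries (94557 and 87153 CPM) and the lowest atrial marker sums (433 and 316 CPM). In bulk heart samples, fewer cells of a type and less RNA per cell cannot be told apart.

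Map1lc3b encodes LC3B, the form most used as an autophagosome marker. It occupies chromosome 8, 121590361 to 121598760, on the plus strand and measured 135, 143, 143, 146 and 148 CPM in unmarked wild-type hearts and 133, 138, 143, 153 and 153 CPM in unmarked HKII+/- hearts. The groups overlapped, and the log2 fold change was 0.0098 (95% interval -0.1 to 0.12). Gabarapl1, of the GABARAP branch of the family (chromosome 6, 129533160 to 129542346, plus strand), ranged more widely, at 106, 111, 129.8, 133 and 149 CPM against 110.4, 117, 125, 128 and 131 CPM. Its HKII+/- values fell inside the HKII+/+ range (log2 fold change -0.041, 95% interval -0.24 to 0.16). The Atg8 genes are paralogs, and the handling of reads that fit several places is not given in the sources used here.

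Shares within the family need no scaling factor and gave the same picture. Map1lc3b made up 27.7% to 29.3% of the counts of Map1lc3a and Map1lc3b together in the unmarked HKII+/+ libraries, and 28% to 29.5% in the unmarked HKII+/- libraries. The groups overlapped. The mean difference, HKII+/- minus HKII+/+, was -0.281 percentage points (28.6 ± 0.664% against 28.9 ± 0.676%, SD, n = 5 each, exact two-sided permutation p = 0.524 over 252 splits, adjusted p = 0.524 over the 2 shares). Gabarapl1 took 37.4% to 42.6% of the counts of Gabarap, Gabarapl1 and Gabarapl2 in unmarked wild-type hearts and 38.6% to 41.2% in unmarked HKII+/- hearts. The difference was -0.909 points (39.5 ± 1.08% against 40.4 ± 2.25%, SD, n = 5 each, exact two-sided permutation p = 0.437, adjusted p = 0.524). The smallest p that 252 splits allow is 0.00794. With all 12 libraries the differences were 1.29 points (exact permutation p = 0.859) and 1.52 points (exact permutation p = 0.706). The Map1lc3b share was 48.4% in replicate 11 (95% exact binomial interval 47.1% to 49.6%) and 39.2% in replicate 13 (38% to 40.5%), above every unmarked library. These intervals cover counting error only.

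Sqstm1, the gene of the cargo receptor p62, had the widest spread of the 10 genes among unmarked libraries (coefficient of variation 11.2%). Found on chromosome 11, 50199366 to 50210827, on the minus strand, it measured 382, 394, 435, 485 and 524 CPM in the unmarked HKII+/+ hearts and 416, 423, 469.7, 490.1 and 517 CPM in the unmarked HKII+/- hearts. The HKII+/- values lay inside the HKII+/+ range. Averages were 444 ± 60.6 and 463 ± 43.3 CPM (SD, n = 5 each), a log2 fold change of 0.061 (95% interval -0.15 to 0.27).

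Tfeb had the largest log2 fold change of the 10 in the unmarked libraries, and it did not pass the test. The gene occupies chromosome 17, 47737030 to 47792419, on the plus strand. Wild-type values were 34.6, 37.5, 40.5, 41.1 and 41.2 CPM, and HKII+/- values were 36.8, 38.6, 43.7, 43.9 and 47.6 CPM. In 3 of 5 HKII+/- hearts Tfeb was above every unmarked wild-type heart. The log2 fold change was 0.11 (95% interval -0.048 to 0.28, edgeR unadjusted p = 0.15), and it was 0.059 with the atrial markers as a covariate. With all 12 libraries it was -0.0053 (SE 0.22), as both marked libraries stood high (81.4 CPM in replicate 13 and 64.4 CPM in replicate 11).

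**Figure D2:**
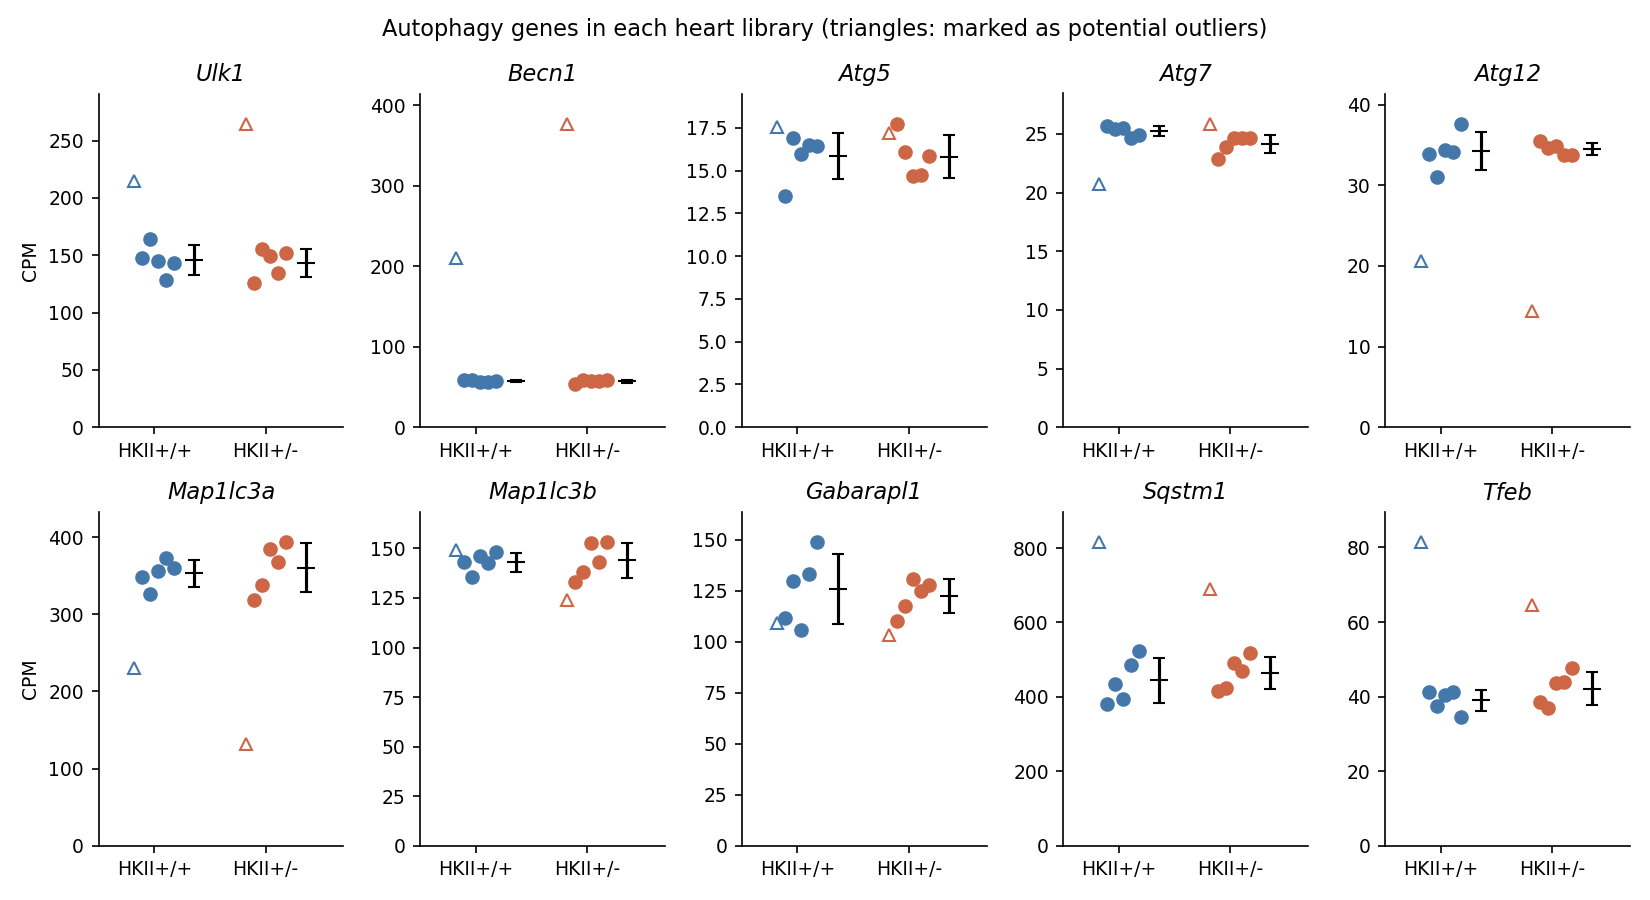
CPM of each autophagy gene (y axes, each from 0) in every library, HKII+/+ in blue and HKII+/- in orange. Filled circles are unmarked libraries, open triangles the marked HKII+/+ replicate 13 and HKII+/- replicate 11, and the black bars give mean ± SD of the 5 unmarked libraries. Circles of the genotypes overlap for 9 genes and lie side by side for Atg7, while Becn1 shows its 2 triangles at 209.5 and 377 CPM.

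Levels were compared between genes only per length, as CPM per kilobase of annotated exons averaged over the 10 unmarked libraries. Map1lc3a was highest at 302 ± 20.8 CPM per kb (SD, n = 10), at percentile 99.2 of 13445 tested genes with a length. Sqstm1 (135 ± 15.1), Gabarapl1 (61.6 ± 6.43), Ulk1 (22.3 ± 1.85) and Map1lc3b (19.1 ± 0.899) followed. Becn1 (8.11 ± 0.218), Tfeb (7.15 ± 0.68) and Atg5 (6.73 ± 0.52) were near one another. Atg12 (4.46 ± 0.214) and Atg7 (3.54 ± 0.121), 2 genes of the conjugation system, were lowest, with Atg7 at percentile 46.8. Tfeb was above Atg5 in 6 of 10 libraries, so by exon length this pair did not differ beyond its spread. The ranges of Becn1 and Tfeb overlapped too, with Becn1 higher in 9 of 10 libraries, as did those of Ulk1 and Map1lc3b, with Ulk1 higher in 10 of 10. Per length, Map1lc3a was 15.8 times Map1lc3b. That factor was 9.25 with the length of the longest transcript in place of all exons, a choice that also placed Map1lc3b (34.7 CPM per kb) above Ulk1 (27.7) and Tfeb (17.3) above Becn1 (13.1). By that length Tfeb and Becn1 stood well above Atg5 (6.73). Atg12 (7.21) was then above Atg5 too, and Atg7 (6.34) was still the lowest of the 10.

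Some of the 10 genes varied together from heart to heart. Of 45 pairs correlated over the 10 unmarked libraries (log2 CPM with TMM factors over those 10 and a prior count of 2), 3 passed after adjustment over the 45. Map1lc3a and Map1lc3b had Pearson r = 0.92 and Spearman rho = 0.90 (permutation p = 0.00034 and 0.00079, adjusted p = 0.00787 and 0.034). Without the 2 libraries farthest from the median of Map1lc3a, r was 0.82. Ulk1 and Becn1 had r = 0.88 and rho = 0.87 (permutation p = 0.00035 and 0.00227, adjusted p = 0.00787 and 0.034), and r was 0.72 without the 2 farthest libraries. Gabarapl1 and Sqstm1 had r = 0.88 and rho = 0.88 (permutation p = 0.00091 and 0.00161, adjusted p = 0.0136 and 0.034), and r was 0.82 without them. With 5 libraries each, no value was computed within a genotype, and the values of a library share its scaling factor. The share of pairs of any genes that would pass was not computed. The 3 pairs are therefore not read as particular to autophagy genes. Tfeb, a regulator of such genes, passed with none of the other 9, its closest being Map1lc3a (r = 0.66, permutation p = 0.0366, rho = 0.72, permutation p = 0.0232, adjusted p = 0.342 and 0.262). Becn1 took part in its pair over a range of only 54.1 to 58.9 CPM.

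**Figure D3:**
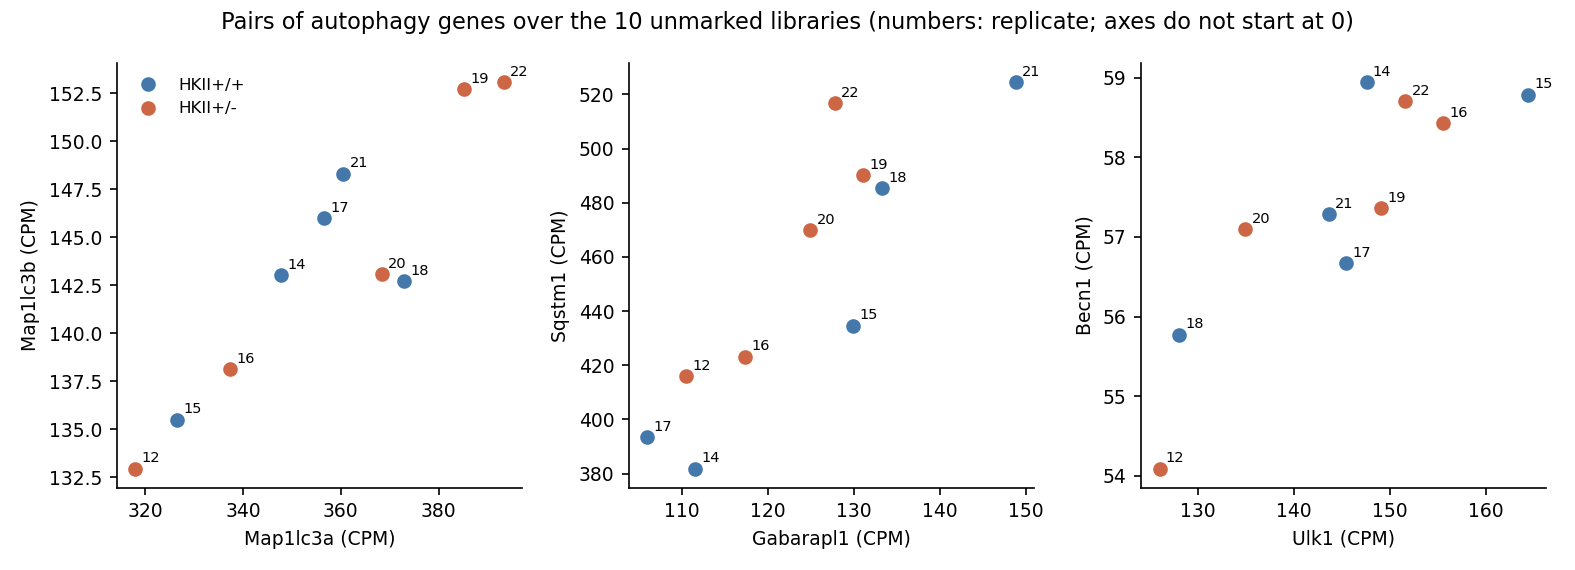
CPM of 3 pairs of autophagy genes over the 10 unmarked libraries, HKII+/+ in blue and HKII+/- in orange, with replicate numbers beside the points and axes that do not start at 0. Both colours lie along the same rising bands, HKII+/- replicate 12 is at the low end for Map1lc3a with Map1lc3b and for Ulk1 with Becn1, and HKII+/+ replicate 21 is at the high end for Gabarapl1 with Sqstm1.

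The gene outside the autophagy lists whose log2 CPM was most like each member over the 10 unmarked libraries was picked from 9495 genes by the highest Pearson r. Being the highest of so many, these values describe the libraries and carry no test. For Map1lc3a it was Cox6a2, the muscle form of a cytochrome c oxidase subunit (r = 0.98). For Gabarapl1 it was Atp6v1c1, a subunit of the proton pump that acidifies lysosomes (r = 0.95). Ulk1 and Becn1 shared the same gene, Cln6, which encodes a membrane protein of the endoplasmic reticulum (r = 0.94 and 0.90). The others were Ush1c for Map1lc3b (0.97), Lims1 for Sqstm1 (0.97), Cep131 for Atg7 (0.98), Rnf11 for Atg12 (0.97), Hhatl for Tfeb (0.94) and Pde7a for Atg5 (0.89).

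The marked libraries differed from the rest far more than the genotypes did from each other. Against the median of the 10 unmarked libraries, Becn1 was 6.52-fold higher in HKII+/- replicate 11 and 3.63-fold higher in HKII+/+ replicate 13 (with 0.5 CPM added to each value). These ratios stood at percentiles 98.5 and 97.8 among 12276 genes. Tfeb was at 1.57 and 1.98 times the same median, Ulk1 at 1.8 and 1.46 times, and Sqstm1 at 1.52 and 1.8 times. Map1lc3a was at 0.37 and 0.644 times and Atg12 at 0.429 and 0.609 times. With TMM factors Atg5, Atg7, Map1lc3b and Gabarapl1 stayed between 0.82 and 1.09 times it in both. By library totals each of these genes lay below every unmarked library in both. The ratios of the 2 libraries share their reference. There is 1 such library in each genotype, so no test of these ratios was made.

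Such shifts were common in these libraries: 47.3% of the 12276 genes in replicate 11 and 34.1% in replicate 13 were more than 2-fold from the unmarked median. Across those genes the log2 ratio rose with the GC content of the longest transcript (Spearman rho 0.63 and 0.65) and fell slightly with its length (-0.14 and -0.20). Genes are not independent replicates, so no p is given. Among the 10 autophagy genes the same rho with GC was 0.15 and 0.22. Becn1, the most raised in both libraries, has 45% GC, below the median of 50% over tested genes, and Tfeb, also raised in both, has 63.2%. Map1lc3a, the most lowered in replicate 11, has 63.1%, and Atg12, the most lowered in replicate 13, has 44.3%. The part of GC content and of other cell types in these ratios was not tested.

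**Figure D4:**
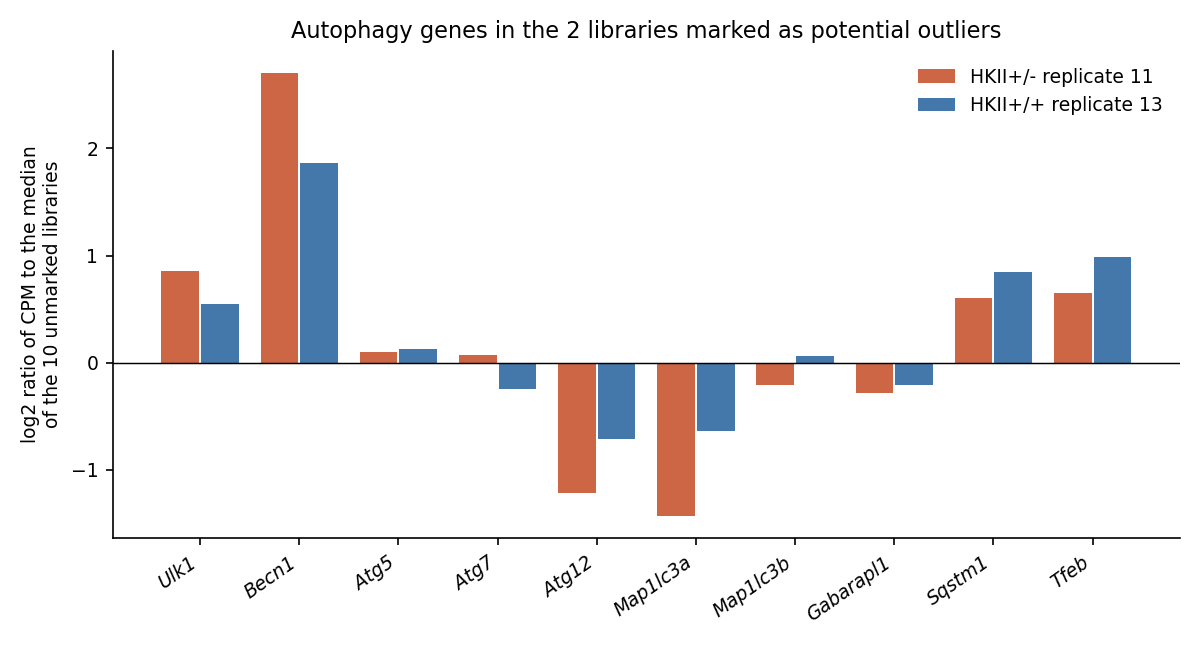
Log2 ratio of CPM in HKII+/- replicate 11 (orange) and HKII+/+ replicate 13 (blue) to the median of the 10 unmarked libraries, with 0.5 CPM added to each value, for the 10 autophagy genes. Becn1 has the tallest bars (2.71 and 1.86), and Map1lc3a (-1.43 and -0.63) and Atg12 (-1.22 and -0.72) the lowest.

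The wider pathway was taken from a list of 71 genes in 9 steps, the 10 genes included, of which 70 passed the filter on low counts (all but Atg4a). In edgeR 0 of the 70 passed the adjusted test in either direction, with the 10 unmarked libraries or with all 12, and 0 had an unadjusted p below 0.05 in either. Some did under other settings, none after adjustment: Atg14 with voom quality weights (10 and 12 libraries), and in the 10 libraries Psap with the atrial covariate, Lamp2 without HKII+/+ replicate 21, and Ctsl and Stx17 without HKII+/- replicate 16. In the unmarked libraries their log2 fold changes lay between -0.10 and 0.14, with a median of -0.0083 beside -0.0046 over all genes tested. Of the 70, 30 were above 0, against 47.3% of all genes, and every 95% bound lay within a 1.27-fold difference. With all 12 libraries 22 of the 70 were above 0, against 49.5% of all genes, with a median of -0.034 beside -0.0013 over all genes tested.

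By step, none of the 5 genes of the ULK1 complex and none of the 8 of the Beclin 1 and lipid kinase complex passed. All 13 lay below 0 in the unmarked libraries (medians -0.023 and -0.050), where 47.3% of all genes lay above 0. Other steps split differently there. Above 0 were 5 of 6 transcription factor genes, 4 of 5 Atg8 genes, 5 of 7 cargo receptor genes and 6 of 9 conjugation genes. In the Atg9, fusion and lysosome lists 3 of 9, 3 of 7 and 4 of 14 were above 0. With 12 libraries 1 of the 5 ULK1 complex genes and 2 of the 8 of the Beclin 1 and lipid kinase complex lay above 0. In the unmarked libraries Ulk1, Becn1 and Atg13 turned above 0 when single libraries were left out. Among them Atg101 averaged 17.7 ± 1.74 against 18.6 ± 1.54 CPM (HKII+/- first, SD, n = 5 each) at a log2 fold change of -0.075, and Atg13 had a log2 fold change of -0.036. Atg14, which directs the lipid kinase to autophagosome formation, averaged 14.9 ± 0.211 against 16 ± 1.16 CPM (HKII+/- first, SD, n = 5 each), a log2 fold change of -0.096 (95% interval -0.23 to 0.036). Ambra1, a Beclin 1 partner, was at -0.062. In the Atg9 and lipid transfer step, Atg2b, a lipid channel, was at 0.050 and Wipi2, a reader of the lipid mark, at -0.050.

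In the conjugation step Atg16l1, the partner of the Atg12 and Atg5 conjugate, had the smallest p of the list. It averaged 50.3 ± 0.781 against 48 ± 1.31 CPM (HKII+/- first, SD, n = 5 each), a log2 fold change of 0.070 (95% interval -0.015 to 0.15, edgeR unadjusted p = 0.0965, adjusted p = 1). Its unmarked groups did not overlap (45.8 to 49.37 CPM in HKII+/+ and 49.38 to 51.1 CPM in HKII+/-), but did with TMM factors taken over the 10 libraries. The protease gene Atg4d was at 0.026. Of the other Atg8 genes, Gabarap averaged 159 ± 6.79 against 157 ± 11.4 CPM (HKII+/- first, SD, n = 5 each) at a log2 fold change of 0.024, and Gabarapl2 was at 0.0028 and turned to -0.0056 with upper-quartile scaling and -0.0042 with library totals.

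Among the cargo receptors Ncoa4, the receptor for ferritin, was at 0.065, and Wdfy3, a scaffold for protein aggregates, at 0.046. In the fusion step Stx17, the autophagosomal SNARE, averaged 42.4 ± 3.34 against 45.3 ± 0.331 CPM (HKII+/- first, SD, n = 5 each) at a log2 fold change of -0.094 (95% interval -0.21 to 0.022), and the tether Epg5 was at -0.082. In the lysosome list the protease gene Ctsl had the lowest log2 fold change of all 70 (-0.10, 95% interval -0.25 to 0.048) and Lamp2, a lysosomal membrane protein, was at 0.064. The transcription factor genes Zkscan3 and Foxo3 were at 0.14 (95% interval -0.076 to 0.35) and -0.071. The values in these 3 paragraphs are from the 10 unmarked libraries, and none of the genes passed with either set of libraries.

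**Figure D5:**
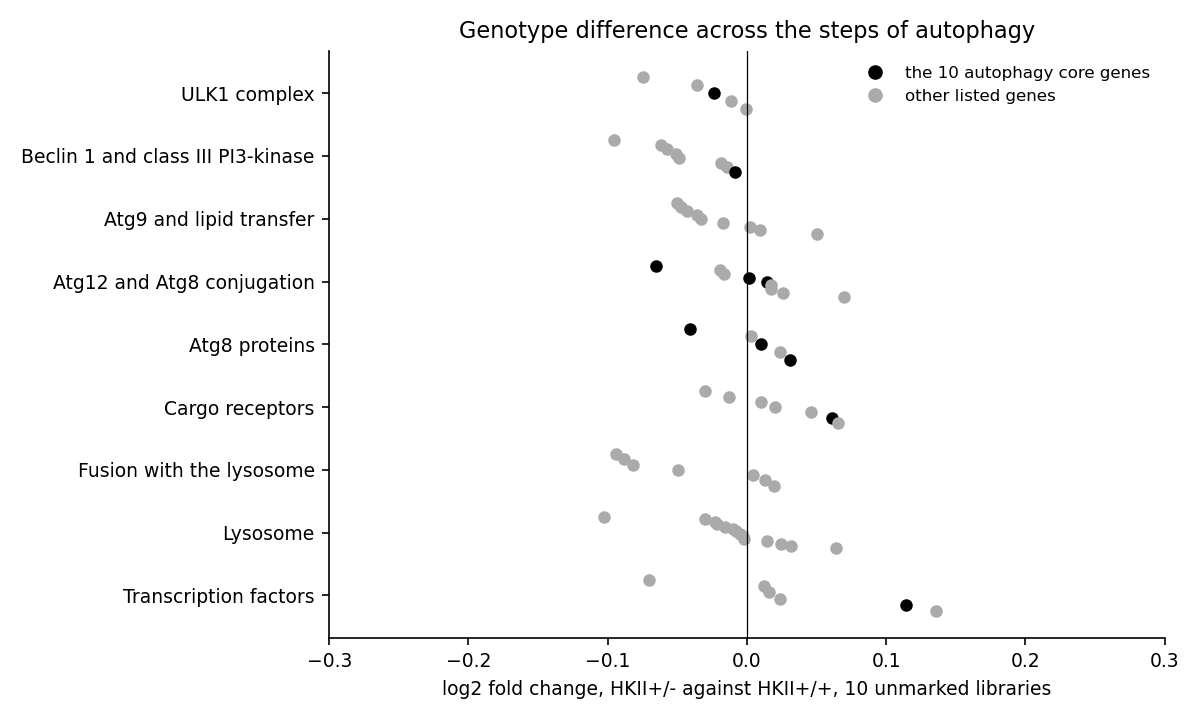
Log2 fold change, HKII+/- against HKII+/+, in the 10 unmarked libraries (x axis) for the 70 tested genes of 9 steps of autophagy (y axis), the 10 core genes in black and the other listed genes in grey. All points lie between -0.10 and 0.14, and none passed the test.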

How the data were processed

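Per the submitters' processing notes, reads were processed with STAR 2.4.0 and featureCounts 1.4.4 on mm10/GRCm38. The authors deposited raw counts of whole reads by gene symbol, in a separate file for each library and not normalised. The strand setting and annotation release were unstated in the sources used here. Genotypes came from sample titles. CPM are counts per 1000000 of the TMM-adjusted total over tested genes, with factors from all 12 libraries (0.76 to 1.09). The test was edgeR 4.0.16 (glmQLFit, glmQLFTest) on the counts with TMM, filterByExpr (minimum count 10) and Benjamini-Hochberg adjustment over all genes at 0.05, without covariates, fitted to 12 and to 10 libraries. Intervals are 95%. Shares were compared by exact two-sided permutation, and pairs by 100000 permutations. Lengths, coordinates and GC came from GENCODE vM21 (GRCm38), and promoters from RefSeq. R was version 4.3.3.

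Named were the 10 genes, Hk2, in each of 9 lists the 2 other genes with the smallest p, and the gene most like each member. Psap, Ctsd, Lamp1, Mcoln1, Atp6v1h and Gla were chosen after their values were seen. Members and lists were chosen with earlier results of these data known. Rubcn is listed as 1700021K19Rik and Adgre1 as Emr1, matched through RefSeq synonyms. On counts simulated from 10 libraries (14139 genes), 73.7% of genes changed 1.5-fold and 85% of those changed 2-fold were recovered, with 10 false calls. From 12 libraries (14107 genes) it was 0% and 19.6%, with 2 false calls. Many genes were changed at once in each simulation, which eases the adjusted threshold. The rates therefore do not measure how often a single changed gene would be called. Alternatives were other factors and filters, DESeq2 1.42.0, limma 3.58.1 voom with quality weights, an atrial marker covariate and leaving out each library. Transcript lengths and the scaling check of non-overlapping groups were added after seeing the data.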

Additional observations from a re-analysis of the deposited data

Results flagged for a closer look

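In each group of libraries, the highest and lowest value were set against the rest, and a value far from its neighbours relative to the whole range of the group was singled out. Of 124 groups, 41 ends stood apart in this way, where chance gives about 1 in 20 groups. Most were the marked libraries. No cause was tested.

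In the library labelled HKII+/- replicate 11, among 6 HKII+/- libraries, the highest values were those of Ulk1 (265 CPM), Becn1 (377), Sqstm1 (689), Hk2 (568), Atg16l1 (129.6), Wipi2 (121), Atg14 (17.9), Foxo3 (281) and Atg101 (56.7). The Map1lc3b share (48.4%) and the Gabarapl1 share (52.1%) were highest there too. Lowest of their group in the same library were Map1lc3a (132 CPM), Atg12 (14.4), Gabarap (62.9), Atg2b (36.9), Ambra1 (22.4), Ncoa4 (12), Stx17 (14.7), Epg5 (19.6), Lamp2 (92.6) and Atg13 (38.9).

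In HKII+/+ replicate 13, among 6 HKII+/+ libraries, Becn1 (209.5 CPM), Sqstm1 (815), Tfeb (81.4), Atg16l1 (108), Atg4d (121), Gabarapl2 (57.4), Wipi2 (93.3), Foxo3 (179), Atg101 (52.7) and the Map1lc3b share (39.2%) stood apart as highest. Map1lc3a (231 CPM), Atg7 (20.7), Ambra1 (29), Stx17 (25.1) and Lamp2 (77.4) stood apart as lowest.

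Among the 5 unmarked libraries of a genotype, 5 values stood apart. Atg5 was lowest in HKII+/+ replicate 14 (13.5 CPM, next 15.9), and Atg4d was highest in HKII+/+ replicate 17 (63.8 CPM). Atg13 was highest in HKII+/+ replicate 21 (110.8 CPM, next 82.6), and Zkscan3 was highest in HKII+/- replicate 12 (52.2 CPM, next 40.1). The Map1lc3b share was lowest in HKII+/+ replicate 18 (27.7%).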

How the results depend on the processing

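No paired analysis was possible because the genotypes share no replicate numbers. Under no alternative did any of the 10 core genes pass an adjusted p of 0.05 (lowest 0.888), in 200 values with 12 libraries (1 of them, Becn1 in DESeq2, without a p) and 180 with 10. The sign changed in 41 and 20 of them, and the cause was not tested.

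With 12 libraries the log2 fold changes that turned were, with library totals, Sqstm1 0.0081 and Tfeb 0.023. With a filter at 1 CPM they were Sqstm1 0.00080, Atg5 0.0069, Atg7 0.011 and Tfeb 0.011, and with the atrial covariate Atg5 0.0033 and Tfeb 3.07e-05. With voom quality weights they were Ulk1 -0.033, Becn1 -0.0092, Map1lc3a 0.018, Gabarapl1 0.018, Sqstm1 0.090, Atg5 0.0054, Atg12 0.033 and Tfeb 0.059, and 2 genes were called among all, 1 of them Hk2 (-0.88, limma adjusted p = 7.66e-05). Leaving out single libraries gave -0.13 to 0.18 for Ulk1, -0.54 to 0.97 for Becn1, -0.12 to 0.12 for Map1lc3a, -0.087 to 0.014 for Gabarapl1, -0.13 to 0.19 for Sqstm1, -0.055 to 0.032 for Atg5, -0.035 to 0.013 for Atg7, -0.12 to 0.11 for Atg12 and -0.13 to 0.25 for Tfeb. The share differences ranged from -2.01 to 3.02 points (Map1lc3b) and -0.591 to 2.11 (Gabarapl1), both below 0 without HKII+/- replicate 11.

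With the 10 unmarked libraries, Atg5 turned with upper-quartile factors (-0.0079), library totals (-0.00093) and the filter at 1 CPM (-0.00091), and Gabarapl2 with upper-quartile factors (-0.0056) and totals (-0.0042). Quality weights turned Map1lc3b -0.0014, Gabarapl1 0.023, Atg4d -0.034 and Atg13 0.017, and the atrial covariate Map1lc3a -0.022, Map1lc3b -0.028, Sqstm1 -0.0033, Atg4d -0.024 and Gabarapl2 -0.052. DESeq2 called 3 genes, and leaving out single libraries gave 0 to 2. Leaving out single libraries also gave -0.067 to 0.020 for Ulk1, -0.020 to 0.0080 for Becn1, -0.0014 to 0.070 for Map1lc3a, -0.012 to 0.034 for Map1lc3b, -0.097 to 0.029 for Gabarapl1, -0.055 to 0.027 for Atg5 and -0.022 to 0.054 for Atg12. In the wider list it gave -0.032 to 0.049 for Atg4d, -0.00094 to 0.061 for Gabarap, -0.027 to 0.030 for Gabarapl2, -0.0043 to 0.075 for Wdfy3 and -0.079 to 0.074 for Atg13.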

Other observations

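The 14 lysosomal genes of the wider autophagy list spanned a wide range of levels per length. In the 10 unmarked libraries Psap, the precursor of sphingolipid activator proteins, stood at 572 ± 45.8 CPM per kb of exons (SD, n = 10) and the protease gene Ctsd at 440 ± 32.6. Both were above Map1lc3a, the highest of the core genes, and Lamp1, a lysosomal membrane protein, stood at 164 ± 8.89. Mcoln1, a lysosomal calcium channel, stood at 4.04 and the proton pump gene Atp6v1h at 2.90, and the galactosidase gene Gla was lowest at 1.09 ± 0.144. None of the 14 lysosomal genes passed the genotype test with 10 or with 12 libraries. Hk2 itself had a Pearson r of 0.77 with Atg7 over the 10 unmarked libraries, the highest of its values with the 10 core genes. In TMM-scaled CPM both genes were lower in all 5 HKII+/- hearts than in any HKII+/+ heart there, so the value follows the genotypes and is given with no test.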
